A study of Homo sapiens with 4 samples.

Results

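Intermediate filaments other than keratins were followed here through 10 genes, chosen by name: vimentin (VIM), nestin (NES), synemin (SYNM), the neurofilament genes NEFL, NEFM and NEFH, alpha-internexin (INA) and the lamin genes LMNA, LMNB1 and LMNB2. All 10 were among the 58735 genes of the deposited table, 9 of them had at least 1 read in a library, and 7 reached a mean of 1 FPKM (reads normalised to gene length in kilobases and to sequencing depth) and were tested. The RNA came from an ovarian cancer line, OVCAR8, labelled with the genotype knockdown of FAM49B (shFAM49B, 2 libraries, hairpins against FAM49B) or with the genotype WT (shCON, 2 libraries, a scrambled hairpin). Both groups received lentiviral short hairpin plasmids by lipofection and were harvested after 36 h, per the labels' protocols, while the series' design text calls the knockdown stable. The labels give neither the hairpin sequence nor selection or clonality, and they do not call replicates separate cultures; p-values therefore cover the scatter of these samples alone, which may be technical.

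Intermediate filament proteins share a coiled-coil rod and assemble into rope-like polymers that give cells and nuclei mechanical strength. Vimentin is the filament protein of mesenchymal cells and of many cultured cancer cells, and nestin and synemin copolymerise with it. The neurofilament proteins and alpha-internexin form the filaments of axons, and lamins A/C, B1 and B2 line the inside of the nuclear envelope. FAM49B, also called CYRIB, is a partner of the small GTPase RAC1 and dampens its drive on actin assembly.

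The 4 libraries held between 15639559 and 16875353 reads, recovered from the deposited values. FAM49B stood at 1.06 and 1.02 FPKM in shFAM49B and at 7.41 and 7.60 FPKM in shCON, 7.21-fold lower in shFAM49B (log2 fold change -2.06, limma adjusted p = 0.00054). Of 9 markers fixed for ovarian carcinoma and epithelium, 5 reached a mean of 1 FPKM: the simple-epithelial keratin gene KRT8 measured 37.4 and 38.4 FPKM in shFAM49B against 41.7 and 39.2 FPKM in shCON, while PAX8, MUC16, MSLN and KRT7 stayed at or below 0.232 FPKM in every library. The defining Mullerian markers PAX8 and MUC16 were thus close to 0 in cells labelled as ovarian cancer. Of the 5 tested markers, 3 were lower in shFAM49B: CDH1 (E-cadherin) 10.2-fold, EPCAM 12.4-fold and KRT18 1.18-fold, while KRT8 and WT1 did not pass (adjusted p = 0.271 and 0.0924). Under TPM and after division by recovered reads all 5 were called lower, KRT8 and WT1 included, and after quantile normalization 4 were. Of all tested genes, 15.8% were lower as deposited, 31.7% under TPM, 30.3% after division by reads and 17.9% after quantile normalization. The summed level of the 9 markers was 63.0 and 63.2 FPKM in shFAM49B and 78.0 and 75.2 FPKM in shCON. These epithelial markers moved in the same libraries as the filament genes described next, and their part in those results was not tested. In bulk RNA, fewer cells of a type and less RNA per cell cannot be told apart.

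VIM and the neurofilament genes NEFL and NEFM rose in shFAM49B, by 1.51-fold, 1.75-fold and 1.68-fold, NES fell 1.98-fold, and the 3 lamin genes did not pass the test at the deposited scaling. Of the 7 tested genes, 3 were therefore higher and 1 lower, where 26.4% of all 13775 tested genes were higher and 15.8% lower at an adjusted p under 0.05 (42.2% in either direction). Calls were that frequent across the whole table, so the count of 4 in 7 stands close to the background. Folds are ratios of mean FPKM, and log2 fold changes come from limma on log2(FPKM + 1), a scale that understates changes of low genes.

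**Figure D1:**
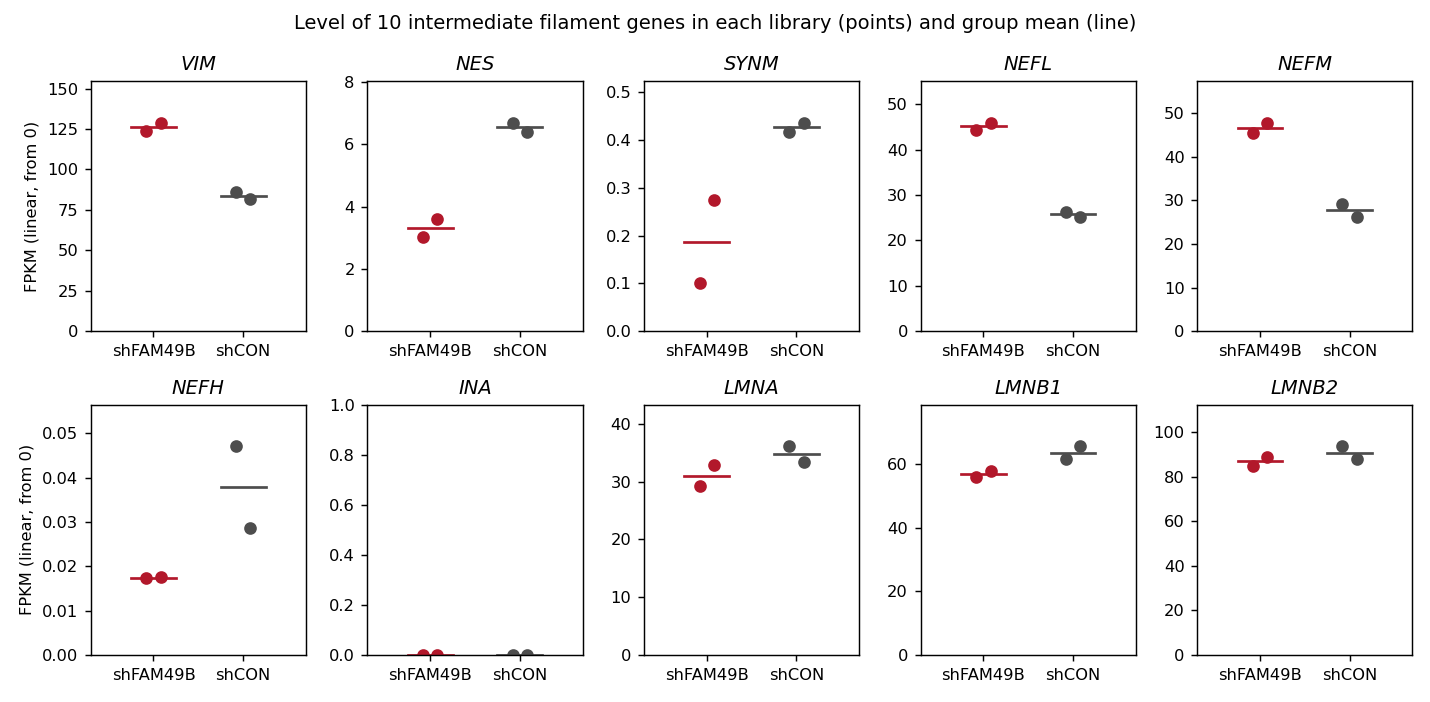
FPKM (linear axis from 0, each panel with its own range) of the 10 genes in the 2 shFAM49B and 2 shCON libraries, with a point for each library and a line at the group mean. VIM, NEFL and NEFM lie higher and NES lower in both shFAM49B libraries, LMNB2 overlaps between the groups, and INA is at 0 throughout.

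VIM (ENSG00000026025, chromosome 10, 17228259 to 17237593 on the plus strand, GRCh38) encodes vimentin and was the most abundant of the 10 genes per length in the shFAM49B libraries. It measured 124 and 129 FPKM in shFAM49B against 85.9 and 81.8 FPKM in shCON. Both shFAM49B libraries lay above both shCON libraries, as in 43.1% of all tested genes. The gap of 37.9 FPKM between the nearest libraries exceeded the SD within the groups (3.53 and 2.94 FPKM). The rise of 0.59 in log2 (SE 0.0579, 95% interval 0.44 to 0.73, limma adjusted p = 0.0025) rested on 9798 and 9948 reads in shFAM49B and 7478 and 7801 reads in shCON. Among 19951 protein-coding genes VIM ranked 258 and 253 by FPKM in shFAM49B and 291 and 313 in shCON. Its share of the summed FPKM of the 10 genes was 32.0% and 31.8% in shFAM49B against 25.3% and 25.0% in shCON.

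NES (ENSG00000132688, chromosome 1, 156668763 to 156677397 on the minus strand) encodes nestin, a long filament protein of progenitor cells that needs a partner such as vimentin to polymerise. It measured 3.04 and 3.59 FPKM in shFAM49B against 6.70 and 6.41 FPKM in shCON. Both shFAM49B libraries were below both shCON libraries, as in 31.6% of all tested genes. Nestin had 259 and 299 reads in shFAM49B and 628 and 659 reads in shCON. Nestin transcripts fell by 0.81 on the log2 scale (SE 0.0903, 95% interval -1.04 to -0.58, limma adjusted p = 0.00316). Since VIM rose while NES fell, the ratio of VIM to NES was 40.8 and 35.9 in shFAM49B against 12.8 and 12.8 in shCON. Such a ratio within a library does not change when all values of a library are multiplied by the same factor. Quantile normalization is not of that kind, and after it the log2 fold changes were 0.20 for VIM and -0.80 for NES.

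The start regions of these 2 genes, which moved in opposite directions, are shown for comparison. Each sequence holds the 250 bases before the RefSeq start on GRCh38.p14, read 5′ to 3′ on the gene's strand, with GC boxes (GGGCGG or its reverse complement) in capitals. The VIM region is chr10:17227991-17228240 on the plus strand and the NES region is chr1:156677408-156677657 on the minus strand.
VIM: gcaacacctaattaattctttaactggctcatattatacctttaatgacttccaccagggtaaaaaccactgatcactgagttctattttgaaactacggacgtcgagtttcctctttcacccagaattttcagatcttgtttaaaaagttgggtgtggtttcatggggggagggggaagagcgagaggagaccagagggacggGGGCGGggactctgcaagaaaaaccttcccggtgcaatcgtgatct
NES: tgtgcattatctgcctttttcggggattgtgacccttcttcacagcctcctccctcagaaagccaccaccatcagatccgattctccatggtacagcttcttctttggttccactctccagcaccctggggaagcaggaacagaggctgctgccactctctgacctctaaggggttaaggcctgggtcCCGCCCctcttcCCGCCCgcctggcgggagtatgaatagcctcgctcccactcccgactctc
The VIM region held 1 GC box and the NES region 2, a motif found on either strand in 42.6% of the 35116 promoters of the same length in the RefSeq table. Neither region held the CCAAT box (CCAAT), which 32.0% of all promoters held on either strand. The TATA box (searched as TATAAA, in 10.7% of all promoters) was in neither region. The AP-1 site (searched as TGANTCA, in 6.57% of all promoters) was in neither region. Of the 10 genes, 7 matched the table, with 10 start regions in all, and 9 of these 10 regions held a GC box. GC content was 46.0% in the VIM region and 58.0% in the NES region. A match of letters is a description and not a binding site.

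SYNM (ENSG00000182253, chromosome 15, 99098217 to 99135593 on the plus strand) encodes synemin, a large filament protein that links vimentin or desmin filaments to the cytoskeleton. It measured 0.10 and 0.273 FPKM in shFAM49B against 0.417 and 0.436 FPKM in shCON, from 12 and 32 reads in shFAM49B and 55 and 63 reads in shCON. Both shFAM49B libraries were below both shCON libraries, but their SD of 0.123 FPKM was large beside their mean of 0.187 FPKM, and the gene was under the level needed for the test. Without a filter on low values its log2 fold change was -0.27 (limma adjusted p = 0.225).

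NEFL (ENSG00000277586, chromosome 8, 24950955 to 24957110 on the minus strand) encodes the light neurofilament subunit, on which the axonal heteropolymer is built. Its level was 44.4 and 45.9 FPKM in shFAM49B against 26.4 and 25.2 FPKM in shCON. NEFM (ENSG00000104722, chromosome 8, 24913012 to 24919098 on the plus strand), the medium subunit, stood at 45.5 and 47.8 FPKM in shFAM49B and at 29.2 and 26.3 FPKM in shCON. In both genes the shFAM49B libraries were above the shCON libraries without overlap, as in 43.1% of all tested genes. NEFL rose by 0.79 in log2 (SE 0.0572, 95% interval 0.64 to 0.93, limma adjusted p = 0.00167), which was the largest rise among the 7 tested genes. NEFM rose by 0.73 in log2 (SE 0.0716, 95% interval 0.55 to 0.91, limma adjusted p = 0.00246).

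The genes NEFL and NEFM are neighbours on opposite strands, 31856 bases apart with no other annotated gene lying wholly between them, and their levels stayed nearly equal. The ratio of NEFM to NEFL in FPKM was 1.03 and 1.04 in shFAM49B against 1.11 and 1.04 in shCON. By rank among protein-coding genes NEFL stood at 861 and 868 in shFAM49B and at 1465 and 1553 in shCON. The fold of VIM was below that of NEFL, and the ratio of VIM to NEFL was 2.79 and 2.81 in shFAM49B against 3.26 and 3.25 in shCON, a difference larger than the spread between the libraries but not tested.

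The other neurofilament components were scarcely detected. NEFH (ENSG00000100285, chromosome 22, 29480230 to 29491390 on the plus strand), the heavy subunit of mature axons, had 1 and 1 reads in shFAM49B against 3 and 2 reads in shCON, too few for a fold. INA (ENSG00000148798, chromosome 10, 103277163 to 103290351 on the plus strand), the alpha-internexin of developing neurons, had 0 reads in all 4 libraries, which allows a level of up to 0.0606 and 0.0620 FPKM in shFAM49B and up to 0.0550 and 0.0502 FPKM in shCON (3 reads per library, for counting error only). The light and medium subunits were thus measured at more than 25 FPKM per library beside a heavy subunit below 0.05 FPKM.

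Neuronal markers went both ways beside NEFL and NEFM. Of 15 such markers 6 were tested, of which 3 rose and 1 fell, where 26.4% of all tested genes were higher and 15.8% lower. Under TPM and after division by reads 3 markers were higher and 3 lower, and after quantile normalization 3 were higher and 2 lower. The synaptic vesicle protein gene SYP rose 1.75-fold, to 5.19 and 5.34 FPKM in shFAM49B against 3.08 and 2.96 FPKM in shCON. The axonal tau gene MAPT rose 1.66-fold and RBFOX3, which encodes the nuclear antigen NeuN, rose 1.48-fold, while ENO2, neuronal enolase, fell 1.29-fold (limma adjusted p = 0.00335 to 0.0125 for these 4 genes). MAP2, a dendritic microtubule protein gene below the level for the test, measured 0.192 and 0.110 FPKM in shFAM49B against 0.518 and 0.557 FPKM in shCON, without overlap. TUBB3, GAP43 and ELAVL3, also untested, were lower without overlap too. SNAP25, untested as well, lay the other way, at 0.214 and 0.219 FPKM in shFAM49B against 0.124 and 0.0483 FPKM in shCON. Among all tested genes, 31.6% were lower and 43.1% higher without overlap. The markers DCX, ELAVL3, ELAVL4 and STMN2 were at or below 0.0623 FPKM in every library, and ELAVL3 and ELAVL4 were at 0 in both shFAM49B libraries. The summed level of the 15 markers was 67.2 and 70.3 FPKM in shFAM49B against 66.9 and 70.3 FPKM in shCON, and UCHL1 alone made up 42.2 and 43.1 FPKM of it in shFAM49B and 41.7 and 45.4 FPKM in shCON.

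LMNA (ENSG00000160789, chromosome 1, 156082573 to 156140089 on the plus strand) encodes lamins A and C, which stiffen the nucleus and are made by alternative splicing that gene values do not separate. It measured 29.3 and 32.9 FPKM in shFAM49B against 36.1 and 33.4 FPKM in shCON. The nearest libraries of the groups were 0.479 FPKM apart, less than the SD within either group (2.56 and 1.96 FPKM). The log2 fold change was -0.16 (SE 0.0797, 95% interval -0.36 to 0.04, limma adjusted p = 0.168).

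LMNB1 (ENSG00000113368, chromosome 5, 126776623 to 126837020 on the plus strand) encodes lamin B1, a farnesylated lamin that stays bound to the nuclear membrane and is lost in senescent cells. Its level was 56.1 and 57.8 FPKM in shFAM49B against 61.7 and 65.7 FPKM in shCON. The groups did not overlap, as was the case for 74.7% of all tested genes. The log2 fold change of -0.16 (SE 0.0591, 95% interval -0.31 to -0.01) had an unadjusted p of 0.0411 in limma and did not pass after adjustment (adjusted p = 0.0828).

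LMNB2 (ENSG00000176619, chromosome 19, 2427638 to 2456996 on the minus strand) encodes lamin B2 and was the most abundant of the 10 genes per length in shCON. It measured 84.9 and 88.6 FPKM in shFAM49B against 93.5 and 87.9 FPKM in shCON, and the groups overlapped. Its log2 fold change was -0.06 (SE 0.0605, 95% interval -0.22 to 0.09, limma adjusted p = 0.437).

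Lamin composition varied little. Of the summed lamin FPKM, LMNB2 took 49.9% and 49.4% in shFAM49B against 48.9% and 47.0% in shCON, LMNB1 took 32.9% and 32.2% against 32.2% and 35.1%, and LMNA took 17.2% and 18.3% against 18.9% and 17.8%. The ratio of LMNA to LMNB1 was 0.545 ± 0.0331 in shFAM49B and 0.547 ± 0.0549 in shCON (SD, n = 2 each), with overlapping libraries. The ratio of VIM to the lamin sum was 0.723 ± 0.00644 in shFAM49B and 0.443 ± 0.00824 in shCON (SD, n = 2 each), without overlap.

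**Figure D2:**
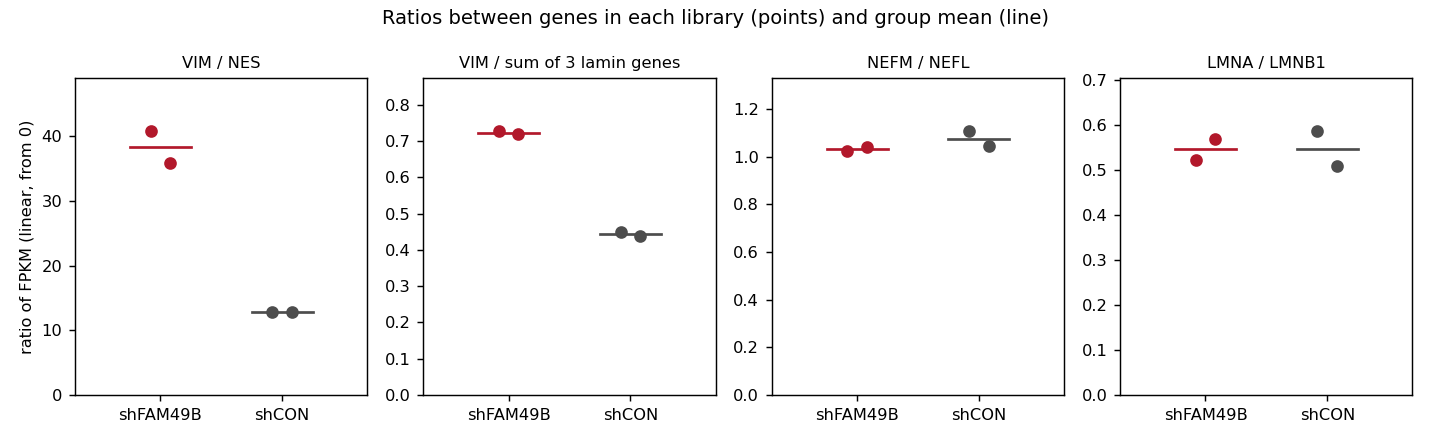
Ratios of FPKM between genes (linear axes from 0) in the 2 shFAM49B and 2 shCON libraries, with a point for each library and a line at the group mean. VIM to NES was 40.8 and 35.9 in shFAM49B against 12.8 in both shCON libraries, whereas LMNA to LMNB1 overlaps between the groups.

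The calls of the lamin genes depended on how libraries were scaled, and those of VIM, NES, NEFL and NEFM did not under the scalings tried. The deposited values carry a factor that places shFAM49B higher than division by reads would: rescaling to TPM shifted the median log2 fold change of all tested genes by -0.22, and division by the recovered reads shifted it by -0.18. Under TPM, 11.6% of genes were called higher and 31.7% lower, and all 3 lamin genes passed as lower, LMNA with a log2 fold change of -0.40 (adjusted p = 0.0102), LMNB1 with -0.40 (0.00643) and LMNB2 with -0.31 (0.00883). They also passed as lower when divided by recovered reads (log2 fold changes of -0.38, -0.38 and -0.29, beside 12.5% of genes higher and 30.3% lower) and after quantile normalization (-0.36, -0.47 and -0.44, beside 19.2% higher and 17.9% lower). Relative to the median of all tested genes the lamin genes LMNA, LMNB1 and LMNB2 stood at -0.21, -0.21 and -0.12 as deposited, and at -0.24, -0.24 and -0.14 under TPM. After division by recovered reads they stood at -0.25, -0.25 and -0.16. Quantile normalization placed them further below the median, at -0.37, -0.49 and -0.45. LMNB1 also passed, at the deposited scaling, with voom on recovered reads (adjusted p = 0.0482). That unplanned fit called 7079 of the 13775 genes, against 5812 in the main fit. VIM, NEFL and NEFM were called higher and NES lower under all 4 scalings, though VIM was 0.20 in log2 after quantile normalization (adjusted p = 0.0337).

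**Figure D3:**
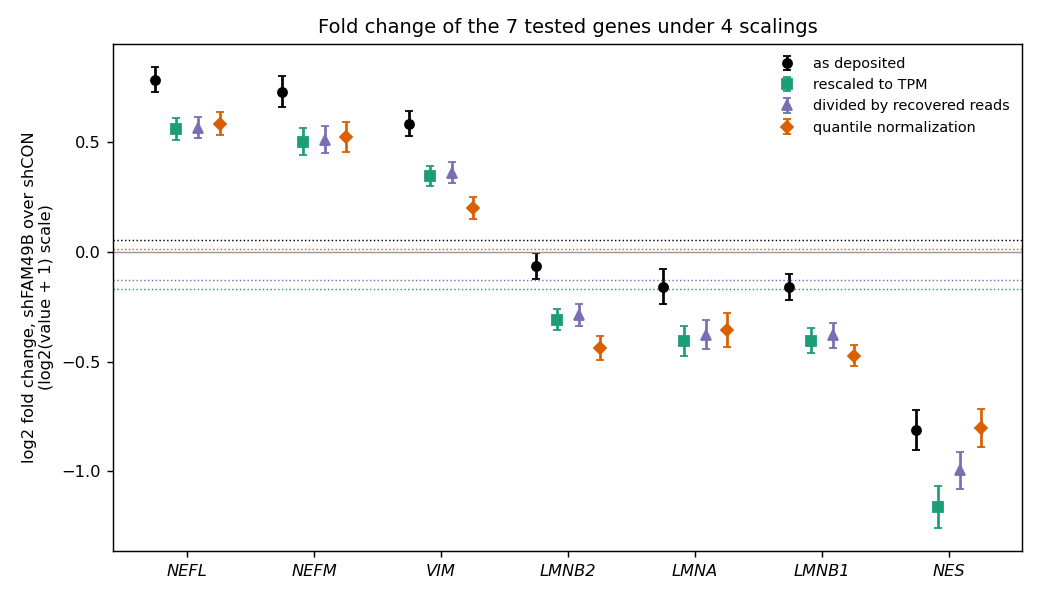
Log2 fold change of shFAM49B over shCON on the log2(value + 1) scale for the 7 tested genes, with bars of 1 SE, as deposited and under 3 other scalings. Dotted lines mark the median of all tested genes under the scaling of the same colour, and the 3 lamin genes lie below 0 everywhere and pass the limma test under the 3 other scalings but not as deposited.

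Genes that overlap the members were looked up, since no source says whether the counting used strand. VIM-AS1, antisense to VIM over 1727 bases, fell to 0.851 and 0.805 FPKM in shFAM49B, against 1.49 and 1.55 FPKM in shCON (limma adjusted p = 0.0441), the opposite direction to VIM. TIMM13, a mitochondrial import chaperone that shares 257 bases with LMNB2 on the same strand, rose to 45.7 and 48.4 FPKM in shFAM49B, against 38.3 and 41.6 FPKM in shCON (limma adjusted p = 0.0422). Its log2 fold change of 0.23 was close in size to the shift of -0.22 under TPM, and its call under other scalings was not examined. AC036108.1, antisense to part of SYNM over 7608 bases, had 20 and 8 reads in shFAM49B against 3 and 1 reads in shCON while SYNM had fewer reads in shFAM49B, and it was not tested. AF106564.1, antisense to NEFM, had 16 and 26 reads in shFAM49B against 42 and 30 reads in shCON. Low counts of AC036108.2, opposite SYNM, reached at most 2 reads per library, and AL133415.1 (VIM), MIR6841 and AC107373.2 (NEFL), AC000035.1 (NEFH) and MIR7108 (LMNB2) had 0 reads in all 4 libraries.

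Plakins are giant cytolinkers that tie intermediate filaments to junctions, actin and microtubules. Of 6 plakin genes 5 were tested and 4 fell, where 15.8% of all tested genes were lower, with a median log2 fold change of -0.84 beside 0.05 for all tested genes. PPL, which encodes periplakin, fell to 0.484 and 0.695 FPKM in shFAM49B, against 5.01 and 3.87 FPKM in shCON (7.53-fold, limma adjusted p = 0.00203). DST (dystonin) fell 2.41-fold and EPPK1 (epiplakin) 2.62-fold. PLEC, which encodes plectin and binds vimentin, fell 1.44-fold, to 16.0 and 17.5 FPKM in shFAM49B against 24.7 and 23.6 FPKM in shCON (limma adjusted p = 0.00471). MACF1 did not pass (adjusted p = 0.142), and EVPL, under the level for the test, measured 0.0608 and 0.134 FPKM in shFAM49B against 1.02 and 1.12 FPKM in shCON. PPL, EVPL and EPPK1 are plakins of epithelia, and CDH1 was 10.2-fold lower in the same libraries. Whether these falls are linked was not tested.

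At the nuclear envelope, changes went both ways. Of 12 genes of the inner nuclear membrane and chromatin tethers, all tested, 4 rose and 3 fell, beside 26.4% and 15.8% of all tested genes. The list's median of 0.04 was negative under TPM, division by reads and quantile normalization (-0.20, -0.17 and -0.07). The balance of calls also turned with the scaling: 2 were higher and 6 lower under TPM and after division by reads, and 3 higher and 4 lower after quantile normalization. EMD, which encodes the lamin-binding protein emerin, rose 1.52-fold, to 89.0 and 89.0 FPKM in shFAM49B against 57.3 and 60.0 FPKM in shCON (limma adjusted p = 0.00225). BANF1, a chromatin-binding partner of emerin and lamin A, rose 1.42-fold but did not pass under the 3 other scalings (adjusted p = 0.0749, 0.0648 and 0.141). TMEM201 rose 1.40-fold, and TOR1AIP2, an activator of the torsin ATPases, fell 1.60-fold. Of 6 LINC complex genes, which connect the lamina to the cytoskeleton, 4 were tested and SYNE2 alone passed (1.37-fold higher, limma adjusted p = 0.0179), beside 26.4% of all tested genes higher. SYNE2 also passed after quantile normalization (0.0173) but not under TPM (0.144) or division by reads (0.120). SUN1, SUN2 and SYNE3 did not pass. The median of the LINC list was 0.12 as deposited, -0.11 under TPM, -0.09 after division by reads and 0.07 after quantile normalization.

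Of 6 genes of protein prenylation and lamin maturation, 2 fell and 1 rose, beside 15.8% and 26.4% of all tested genes. The list's median was -0.02, and 3 were lower and none higher under TPM, where 31.7% of all tested genes were lower. ZMPSTE24, the protease that cleaves prelamin A, fell 1.30-fold, to 27.4 and 24.8 FPKM in shFAM49B against 35.4 and 32.4 FPKM in shCON (limma adjusted p = 0.0167). PGGT1B, the beta subunit of a geranylgeranyl transferase, fell 1.45-fold. FNTA, the alpha subunit of farnesyltransferase, rose 1.24-fold but did not pass under TPM (adjusted p = 0.568) or division by reads (0.454). FNTA also passed after quantile normalization (limma adjusted p = 0.0375). FNTB, ICMT and RCE1 did not pass (adjusted p = 0.630, 0.572 and 0.745).

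Genes of filament phosphorylation were split. Of 13 genes, 7 rose and 4 fell (median 0.22), beside 26.4% and 15.8% of all tested genes. Under TPM 2 of the 13 were higher and 4 lower (median 0.00036), beside 11.6% and 31.7% of all tested genes. AURKB and PLK1, mitotic kinases that phosphorylate vimentin, rose 1.45-fold and 1.44-fold, and both passed under the 3 other scalings. ROCK2, a kinase of vimentin and neurofilaments, fell to 4.75 and 4.20 FPKM in shFAM49B, against 9.85 and 9.57 FPKM in shCON (2.17-fold, limma adjusted p = 0.00184). PPP2CA, the catalytic subunit of protein phosphatase 2A, fell 1.36-fold.

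Of 6 genes of neurofilament transport and turnover, 3 fell and 2 rose, beside 15.8% and 26.4% of all tested genes. The list's median was -0.34, and 4 were lower and none higher under TPM, where 31.7% of all tested genes were lower. TRIM2, a ubiquitin ligase that binds the light subunit, fell 1.77-fold, to 4.75 and 4.26 FPKM in shFAM49B against 8.11 and 7.86 FPKM in shCON (limma adjusted p = 0.00292). The kinesin heavy chain genes KIF5C and KIF5B fell 1.67-fold and 1.37-fold. DYNC1H1, the dynein heavy chain, rose 1.38-fold as deposited, with a limma adjusted p of 0.0625 under TPM and 0.0387 after quantile normalization.

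**Figure D4:**
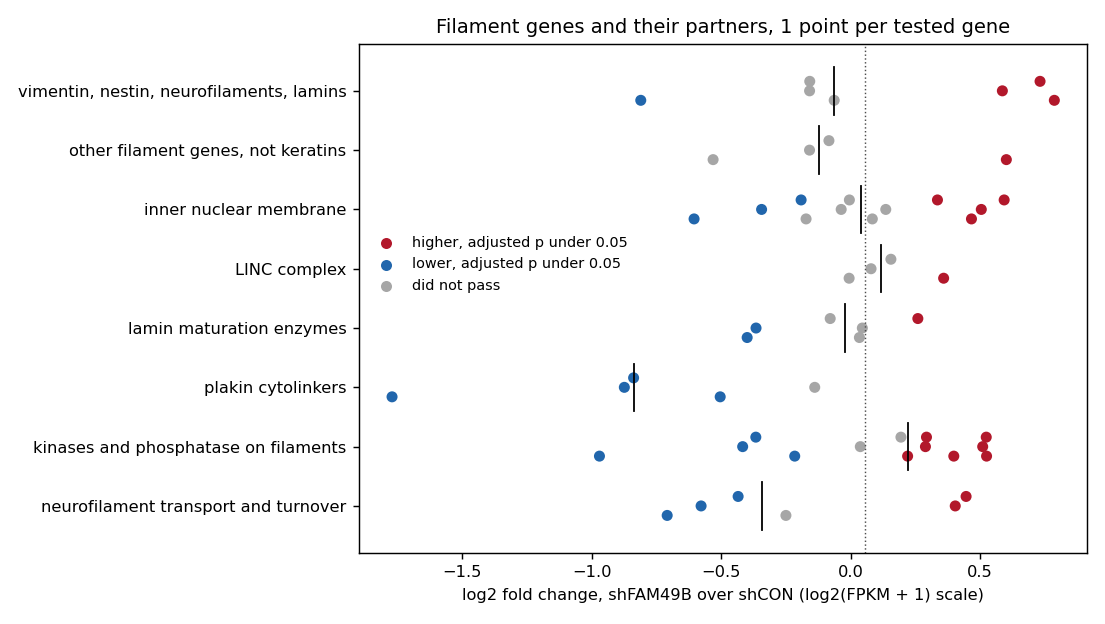
Log2 fold change of shFAM49B over shCON (log2(FPKM + 1) scale) for each tested gene of the filament set and 7 partner lists, with a black bar at the list's median and a dotted line at the median of all tested genes (0.05). The 4 falling plakins reach -1.77, and the other lists spread to both sides.

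Of 8 other filament genes outside the keratins, 4 were tested and 1 passed, as higher, where 26.4% of all tested genes were higher and 15.8% lower. With TPM and with division by reads, 1 was higher and 1 lower, and after quantile normalization 1 was higher and 0 lower. IFFO1, a nuclear filament-like protein that binds lamins, rose 1.58-fold, to 12.3 and 12.5 FPKM in shFAM49B against 7.53 and 8.19 FPKM in shCON (limma adjusted p = 0.00317). The muscle filament gene DES measured 0.873 and 0.434 FPKM in shFAM49B against 1.52 and 1.23 FPKM in shCON and did not pass (adjusted p = 0.0809), nor did the lens gene BFSP1 or IFFO2. PRPH, GFAP and SYNC stayed below 0.56 FPKM in every library and BFSP2 had 0 reads in all 4. The median of the list was -0.12.

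Of 10 fibroblast and stromal markers 1 was tested, the collagen gene COL1A1, which measured 5.91 and 6.55 FPKM in shFAM49B against 5.36 and 5.83 FPKM in shCON and did not pass (limma adjusted p = 0.239), and the list summed to 7.17 and 7.80 FPKM in shFAM49B against 6.90 and 7.25 FPKM in shCON. ACTA2, which encodes smooth muscle actin, measured 0.789 and 0.741 FPKM in shFAM49B against 0.299 and 0.382 FPKM in shCON, without overlap and below the level for the test. COL3A1, also untested, lay the other way, at 0.268 and 0.334 FPKM in shFAM49B against 0.618 and 0.421 FPKM in shCON. PDGFRB did so too, at 0.0731 and 0.0187 FPKM in shFAM49B against 0.291 and 0.258 FPKM in shCON. Among all tested genes, 43.1% lay higher and 31.6% lower without overlap. COL1A2 and FAP had no read in shFAM49B or in shCON replicate 1. The 8 blood and endothelial markers summed to 0.272 and 0.0727 FPKM in shFAM49B against 0.346 and 0.466 FPKM in shCON, none was tested, and HBB was at 0 throughout. The part of these markers in the rise of VIM was not tested.

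The profiles closest to those of the largest rise and the largest fall were found over the 4 libraries by Euclidean distance of centred log2(FPKM + 1) values among 11400 tested protein-coding genes. Among those closest to NEFL were SPAG7 (distance 0.0278) and MCM5 (0.0306). MCM5, a subunit of the replicative helicase, measured 38.6 and 40.9 FPKM in shFAM49B against 22.9 and 21.8 FPKM in shCON. Closest to NES were P2RY11 (0.0239), ZNF134 (0.0331) and HSPB8 (0.0413). HSPB8, a small heat shock protein gene, measured 6.16 and 6.92 FPKM in shFAM49B against 12.1 and 11.7 FPKM in shCON. The 4 libraries fall in 2 groups, so likeness here is chiefly an equal difference between shFAM49B and shCON.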

How the data were processed

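Per the labels' protocols, total RNA went into NEBNext Ultra libraries. The authors deposited FPKM for 58735 genes with coordinates and gene length, per the file headers. All identifiers are human and in GENCODE release 29, and 58724 share its start and end (GRCh38), although GRCm38 and mm10, which are mouse builds, stand in the submitters' processing notes. Neither the aligner nor the counter is given in the sources used here. Multiplied by gene length, 100% of the values above 0 fell on whole steps (tolerance 0.001 of a step), which gave back the reads. The denominators equalled 0.941 and 0.919 times the reads in shFAM49B and 1.08 and 1.10 times in shCON, and matched median-ratio factors over 20791 genes. Replicates differed by more than counting noise (chi-square per gene 3.48 in shFAM49B and 3.90 in shCON, for genes of 20 or more reads per pair), so each was kept.

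The log2(FPKM + 1) values of 13775 genes averaging 1 FPKM or more were tested by limma 3.58.1 (R 4.3.3) with a mean-variance trend (2 residual and 3.32 prior degrees of freedom), 2-sided, with Benjamini-Hochberg adjustment over all tested genes and a threshold of 0.05. The procedure was also run on simulated data, with far fewer changed genes than were called here, so that run does not assess the calls in these data. The members and 11 further gene lists were chosen with earlier results of these data known; lists are described by counts and medians. All members are named, and from each list up to 4 tested genes of smallest p; other genes named from the lists, those at or near 0 among them, were chosen after their values were seen. For the largest rise and the largest fall, the 3 tested protein-coding genes of closest profile are named, of which 1 is not reported here. The planned edgeR and DESeq2 fits were not run; limma's voom on the recovered reads was added after seeing the data.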

Additional observations from a re-analysis of the deposited data

How the results depend on the processing

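VIM, NEFL and NEFM were called higher in shFAM49B under all 12 alternatives run, with log2 fold changes of 0.20 to 0.62, 0.56 to 0.82 and 0.50 to 0.81. NES was called lower under the 11 alternatives in which it was tested (-1.16 to -0.72) and was left out by the filter at a mean of 5 FPKM, under which 0 members were called lower. The lamin genes kept a negative sign under all 12 alternatives. The count of members called lower was 4 under TPM, 4 after division by recovered reads, 4 after quantile normalization, the lamins being added, and 2 with voom on recovered reads (LMNB1 with adjusted p = 0.0482). The voom fit called 7079 genes in all. All genes called numbered 5812, against 3563 without a filter on low values and 3151 to 4024 without 1 library; leaving out a library kept 3 members higher and 1 lower in each case. The lowest of these counts, 3151, came without shCON replicate 1, followed by 3176 without shFAM49B replicate 2 and 3484 without shCON replicate 2. With the replicate number as a block, 3 members were higher and 1 lower among 5465 called genes; deviations of same-numbered libraries correlated at -0.0132, and the labels name no shared origin, so the numbers were not taken as pairs. The edgeR and DESeq2 alternatives were not run. Depth limits SYNM, NEFH and INA, for which 118 reads or fewer were found per group.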
